A study of Mus musculus with 8 samples.

Results

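The 9 genes described here encode transcription factors of blood stem cells and of the myeloid lineage. They are Mecom, Prdm16, Meis1, Hlf, Myb, Spi1, Cebpa, Ikzf1 and Hhex, and they were taken by name from a gene count table of 41128 genes. RNA was sequenced from mouse haemogenic endothelium, the endothelium from which the first blood cells arise, made by differentiating embryonic stem (ES) cells of strain C57BL/6. The 4 groups, of 2 libraries each, were the Hdac2 lox/lox line with 4OHT, the Hdac2 lox/lox line with EtOH, the Hdac1 lox/lox line with 4OHT and the Hdac1 lox/lox line with EtOH. 4OHT (4-hydroxytamoxifen) is a tamoxifen metabolite that activates Cre recombinases fused to a modified oestrogen receptor, and EtOH (ethanol) is its solvent. The alleles carry lox sites at Hdac1 or Hdac2, genes of the class I histone deacetylases, and the design names deletion of either gene as the subject of the study. All 4 groups carry lox alleles. The labels do not say which Cre acts on them or whether a line is 1 clone, and a line without lox sites under 4OHT was not analysed here. No label says that the libraries of a group came from separate cultures, so p-values measure only the spread between these libraries, which may be technical.

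Haemogenic endothelium turns into blood under the control of a small set of transcription factors that switch endothelial genes off and blood genes on. Mecom, Meis1, Myb, Prdm16 and Hlf are known for their roles in forming or keeping blood stem cells, and several of them drive leukaemia when overexpressed. Spi1 and Cebpa direct progenitors towards macrophages and granulocytes, Ikzf1 is best known for lymphoid development, and Hhex is used from the earliest endothelial and blood progenitors on. Histone deacetylases remove acetyl groups from histones in complexes that mostly repress transcription, and such complexes are known partners of several of these factors.

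The stretches of sequence before the transcription starts of Mecom, Myb and Ikzf1 are shown because these are the genes among the 9 whose counts changed with 4OHT in the Hdac2 line. Windows of 250 bases before a RefSeq start on GRCm38.p6 were found for 8 of the 9 genes, 10 windows in all. They were searched on both strands for core letters that GATA factors (GATAA), RUNX factors (TGTGGT), ETS factors (GGAAG) and SMAD factors (CAGACA) are known to bind, and matches are in capitals. Bases inside an annotated exon are left out, which shortens the Mecom window before its outer start (chr3:30509823-30510009, minus strand) to 187 bases and removes the window before its inner start, which lay wholly within an exon. The Myb window (chr10:21160985-21161234, minus strand) and both Ikzf1 windows (chr11:11685675-11685924 and chr11:11689927-11690176, plus strand) are whole, and each is written from 5′ to 3′. The Mecom stretch and the Ikzf1 windows lie inside the annotated span of their own gene but outside its exons, while the Myb window lies before the gene.
Mecom outer start: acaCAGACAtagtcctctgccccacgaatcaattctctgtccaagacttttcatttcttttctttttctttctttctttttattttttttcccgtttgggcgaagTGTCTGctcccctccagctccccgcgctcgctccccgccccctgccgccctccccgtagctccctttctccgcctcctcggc
Myb: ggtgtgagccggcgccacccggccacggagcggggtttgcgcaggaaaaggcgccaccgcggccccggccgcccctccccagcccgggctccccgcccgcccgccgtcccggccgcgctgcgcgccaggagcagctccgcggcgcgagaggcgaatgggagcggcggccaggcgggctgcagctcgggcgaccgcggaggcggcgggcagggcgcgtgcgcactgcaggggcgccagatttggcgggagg
Ikzf1 outer start: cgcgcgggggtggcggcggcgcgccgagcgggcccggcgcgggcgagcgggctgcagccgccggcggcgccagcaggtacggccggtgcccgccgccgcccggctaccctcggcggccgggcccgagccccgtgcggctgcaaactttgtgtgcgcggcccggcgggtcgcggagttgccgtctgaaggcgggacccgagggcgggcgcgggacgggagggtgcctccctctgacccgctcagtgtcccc
Ikzf1 inner start: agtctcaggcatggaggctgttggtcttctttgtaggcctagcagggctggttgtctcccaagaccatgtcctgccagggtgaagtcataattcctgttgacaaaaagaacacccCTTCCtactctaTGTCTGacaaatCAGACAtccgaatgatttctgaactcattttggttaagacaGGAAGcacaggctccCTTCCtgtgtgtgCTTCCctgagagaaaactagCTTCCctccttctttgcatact
The printed Mecom stretch held 2 matches to CAGACA and none to the other motifs, and the whole windows before both Mecom starts held 1 match to GATAA each, that before the inner start also 1 to GGAAG. The Myb window and the outer Ikzf1 window held none of the 4 motifs, and their G+C shares were 81.2% and 82.0%, against a median of 52.4% over 32851 windows of all genes. The inner Ikzf1 window held 5 matches to GGAAG and 2 to CAGACA, none overlapping. Of the windows not printed, that of Meis1 held 1 match to TGTGGT and 3 to GGAAG, those of Hlf and Hhex held 1 match to GGAAG each, and those of Cebpa and Prdm16 held none. Over all windows of 250 bases, GATAA was present in 22.6%, TGTGGT was found in 14.0%, GGAAG was found in 64.1% and CAGACA was found in 17.1%. A match describes letters only and is no evidence of binding.

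Total counts per library ran from 10215792 to 19552380, and 3 counts, taken as the floor of detection, corresponded to 0.15 to 0.287 CPM (counts scaled to library size). Levels below are CPM scaled by TMM, a correction for library composition, and tests are edgeR's quasi-likelihood test over 14179 genes with Benjamini-Hochberg adjusted p-values and a threshold of 0.05. Of the 9 genes, 8 passed the filter on low counts and Prdm16 did not. Gene-level counts of the targeted genes do not show whether the 4OHT libraries carry a deletion, since the floxed part is not stated. With 4OHT, Hdac2 differed by -0.08 ± 0.14 on the log2 scale in its own line (SE, adjusted p = 0.67) and Hdac1 by 0.31 ± 0.23 in its own (adjusted p = 0.84), with most Hdac1-like reads counted at its near-copy Gm10093. Gm10093 differed by -0.27 ± 0.16 in the Hdac1 line (adjusted p = 0.80) and by -0.40 ± 0.16 in the Hdac2 line (adjusted p = 0.077). Its 4OHT libraries lay below its EtOH libraries in both lines. In the Hdac2 line, the Y-linked gene Ddx3y stood at 0.466 and 0.889 CPM with 4OHT, against 0.324 and 4.58 CPM with EtOH, so that the second EtOH library stood apart in it. In the Hdac1 line it stood at 44.8 and 29.5 CPM with 4OHT and at 25.8 and 45.7 CPM with EtOH, far above every library of the Hdac2 line. In the Hdac1 line, libraries with different agents were the most alike: log2 CPM of 4OHT replicate 1 and EtOH replicate 2 correlated at 0.987 across genes, and 4OHT replicate 2 and EtOH replicate 1 at 0.979, against 0.976 within the 4OHT pair and 0.968 within the EtOH pair.

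The labelled cell type was checked with marker genes. All 8 endothelial markers, among them Cdh5 and Pecam1, were above the floor in every library. All 6 markers of haemogenic endothelium and early blood had counts in every library. Of these 6, Ptprc was only at the floor in EtOH replicate 2 of the Hdac2 line and in both 4OHT libraries of the Hdac1 line. The sum of those 6, which include Runx1, Kit and Itga2b, was lower with 4OHT in both lines. In the Hdac2 line it was 220.6 and 245 CPM with 4OHT, against 404 and 431 CPM with EtOH. In the Hdac1 line it was 338 and 404 CPM with 4OHT, against 565 and 510 CPM with EtOH. The 6 did not move together in the Hdac2 line, where 1 was called higher and 1 lower. Ptprc there stood at 2.95 and 4.18 CPM with 4OHT, against 0.713 and 0.287 CPM with EtOH. It needed these 4OHT libraries to pass the filter on low counts, so its difference is a description. Myb and Ikzf1 were lower in the 4OHT libraries of both lines, and so was Meis1 in the Hdac1 line. Summed endothelial markers reached 5610 and 7438 CPM with 4OHT in the Hdac2 line, against 2625 and 2828 CPM with EtOH. Of the 8, 5 were called higher in that line and 0 lower. Esam overlapped between agents there, and Cldn5 went the other way, at 31.9 and 56.7 CPM with 4OHT, against 92.5 and 107 CPM with EtOH. Summed erythroid markers, 6 genes led by embryonic globins, reached 319 and 206 CPM with 4OHT, against 1616 and 1592 CPM with EtOH. The endothelial and erythroid sums overlapped between agents in the Hdac1 line, with erythroid markers at 149.7 and 419 CPM with 4OHT and 908 and 271 CPM with EtOH. The sum of 6 smooth muscle and mesenchyme markers, mostly Acta2 and Tagln, was also higher with 4OHT in both lines. In the Hdac2 line it was 6240 and 4150 CPM, against 2036 and 1418 CPM with EtOH. In the Hdac1 line it was 2509 and 2171 CPM, against 1619 and 1536 CPM with EtOH. Of these 6, 5 were called higher in the Hdac2 line, where Pdgfrb overlapped between agents, at 68.4 and 37.0 CPM with 4OHT, against 35.4 and 44.9 CPM with EtOH. In the Hdac1 line 0 were called, and Cnn1, Pdgfrb, Col3a1 and Myh11 overlapped. Cardiomyocyte markers in the Hdac2 line summed to 32.0 and 35.7 CPM with 4OHT, against 12.3 and 9.17 CPM with EtOH. Endoderm markers there summed to 218 and 231 CPM with 4OHT, against 48.9 and 53.4 CPM with EtOH. Nearly all of these sums came from Sox17, which endothelium also expresses. Of the 3 endoderm markers tested, 2 were called higher and 0 lower in that line. Foxa2 stood at 4.97 and 3.02 CPM with 4OHT, against 0.389 and 0.382 CPM with EtOH. Hnf4a was at 0 in both 4OHT libraries, and at 0.0648 and 0 CPM with EtOH. Pluripotency markers summed to at most 4.11 CPM in any library. The part of these marker shifts in the results for the 9 genes was not tested, and in bulk RNA fewer cells of a type and less RNA per cell cannot be told apart.

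Mecom had the largest fold change among the 8 tested genes when 4OHT was compared with EtOH in the Hdac2 line, a comparison that asks what changed where Hdac2 was to be deleted. Mecom encodes a zinc finger factor, also called EVI1, that is needed for blood stem cells (ENSMUSG00000027684, chromosome 3, 29951299 to 30548008, mm10, minus strand). Its gene-level count covers transcripts from both starts described above, so the longer and shorter products cannot be told apart. Mecom stood at 72.0 and 114 CPM in Hdac2 lox/lox 4OHT libraries, against 3.82 and 9.26 CPM in Hdac2 lox/lox EtOH libraries. Both 4OHT libraries lay far above both EtOH libraries, and each count was well above the floor, with 928 and 1287 reads in 4OHT and 59 and 97 reads in EtOH. The fold change was 14.5, or 3.86 ± 0.67 on the log2 scale (SE, 95% interval 2.31 to 5.41, adjusted p = 0.010). Of all genes tested in this comparison, 36.1% were called, 18.9% as higher and 17.2% as lower, and of the 8 tested transcription factors 1 was called higher and 2 lower, a share near that of all genes.

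Mecom took other values in the Hdac1 line. It stood at 29.8 and 12.02 CPM in Hdac1 lox/lox 4OHT libraries, against 18.2 and 45.7 CPM in Hdac1 lox/lox EtOH libraries. These groups overlapped, with a log2 fold change of -0.62 ± 0.59 (adjusted p = 0.89). Its level was highest in Hdac2 lox/lox 4OHT, followed by Hdac1 lox/lox EtOH, Hdac1 lox/lox 4OHT and Hdac2 lox/lox EtOH, and the middle pair of groups overlapped. The highest group mean was 14.2 times the lowest, the widest range among the 9 genes where a ratio could be formed. The endothelial marker sum of the Hdac1 line was 5500 and 4146 CPM in its 4OHT libraries and 3429 and 5047 CPM in its EtOH libraries. With either agent, the library with more Mecom was also the one with the higher sum, and the part of this in the Mecom values was not tested.

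**Figure D1:**
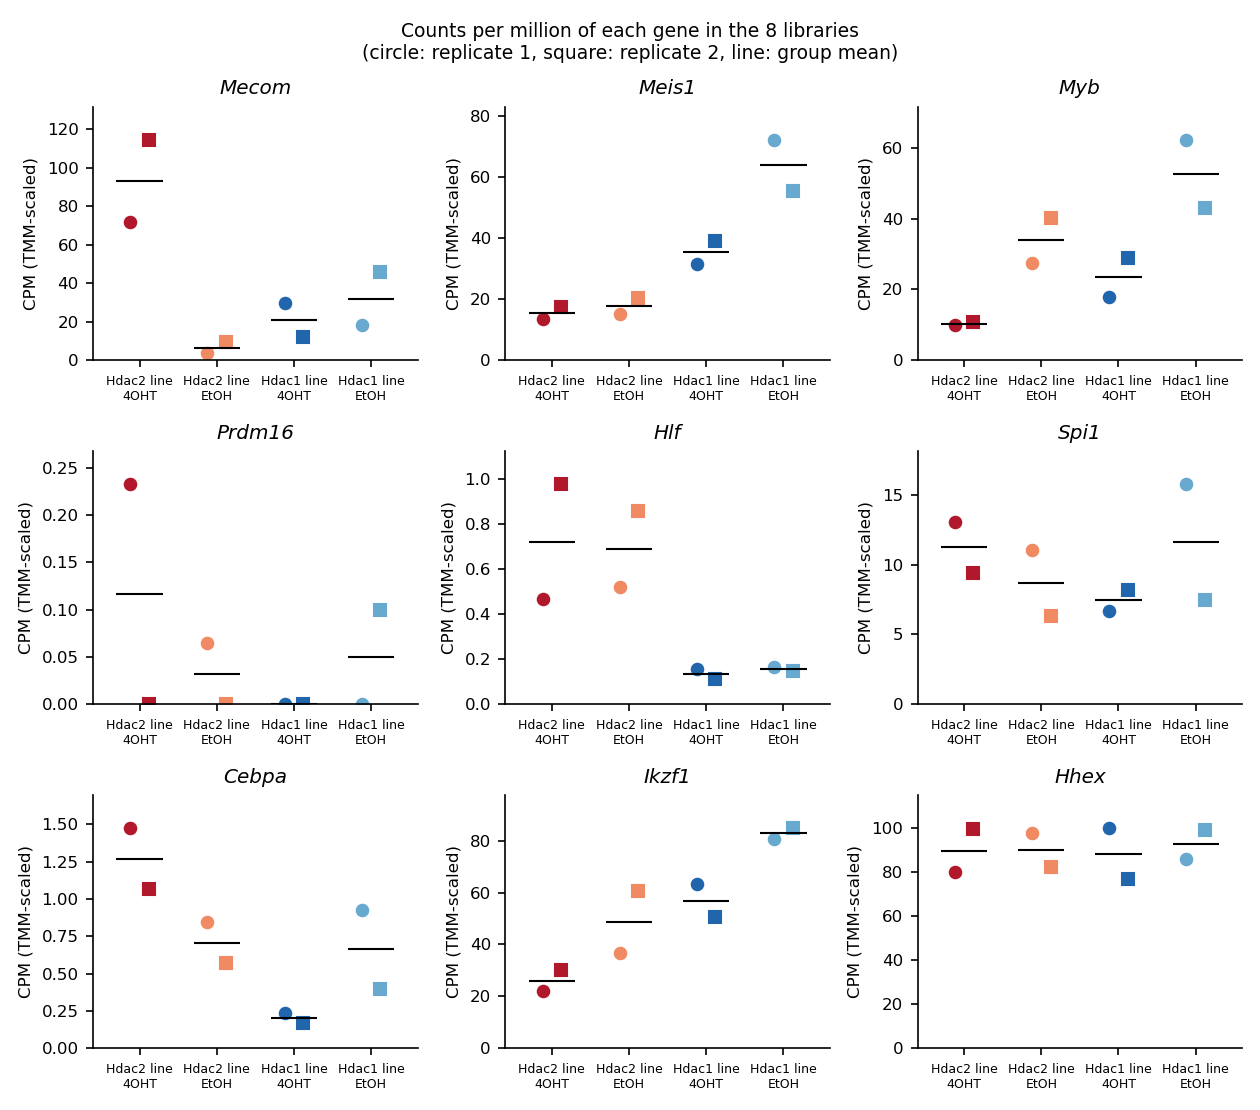
CPM (TMM-scaled) of the 9 genes, 1 panel each with its own axis starting at 0, in the 8 libraries. Circles are replicate 1, squares replicate 2 and horizontal lines group means of 2 libraries. Mecom stands at 72.0 and 114 CPM in the 4OHT libraries of the Hdac2 line, above all other libraries, while Hhex stays between 76.9 and 100.03 CPM in all 8.

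Prdm16, a PRDM family relative of Mecom that also serves blood stem cells, was barely detected (chromosome 4, 154316125 to 154636873). It had 3 and 0 counts in Hdac2 lox/lox 4OHT libraries and 1 and 0 counts in Hdac2 lox/lox EtOH libraries. The Hdac1 line had 0 counts in both 4OHT libraries and 0 and 2 counts in the EtOH libraries. With 6 counts over all 8 libraries it was at or under the floor everywhere, so no fold was formed and no difference was detectable at this depth.

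Meis1, a homeodomain factor that works with PBX and HOX proteins in stem cells, differed between the lines rather than passing with 4OHT (chromosome 11, 18879817 to 19018985, minus strand). Levels in the Hdac2 line were 13.6 and 17.6 CPM in 4OHT libraries, against 15.0 and 20.5 CPM in EtOH libraries. These overlapped, and the log2 fold change was -0.19 ± 0.25 (95% interval -0.76 to 0.38, adjusted p = 0.56). Hdac1 lox/lox libraries had 31.6 and 39.2 CPM with 4OHT, against 72.1 and 55.5 CPM with EtOH. Both 4OHT libraries were below both EtOH libraries there, with a log2 fold change of -0.85 ± 0.24, unadjusted p = 0.0074 and adjusted p = 0.71 in edgeR. The order of group means was Hdac1 lox/lox EtOH, Hdac1 lox/lox 4OHT, Hdac2 lox/lox EtOH and Hdac2 lox/lox 4OHT, and the lowest pair overlapped.

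Myb, the cellular form of a viral oncogene and a factor that definitive blood cells require, fell with 4OHT in the Hdac2 line (ENSMUSG00000019982, chromosome 10, 21124936 to 21160905, minus strand). It stood at 9.86 and 10.8 CPM in Hdac2 lox/lox 4OHT libraries, against 27.5 and 40.2 CPM in Hdac2 lox/lox EtOH libraries. The groups did not overlap, and the 4OHT libraries were the lowest of all 8. The log2 fold change was -1.71 ± 0.32 (95% interval -2.45 to -0.98, adjusted p = 0.012), that is 3.28 times lower with 4OHT. Myb in the Hdac1 line stood at 17.8 and 29.0 CPM in 4OHT libraries, against 62.2 and 43.0 CPM in EtOH libraries. These did not overlap either, with a log2 fold change of -1.16 ± 0.30, unadjusted p = 0.0051 and adjusted p = 0.71 in edgeR. Group means ran from Hdac1 lox/lox EtOH through Hdac2 lox/lox EtOH and Hdac1 lox/lox 4OHT, which overlapped, down to Hdac2 lox/lox 4OHT. The fold changes of the lines differed by -0.55 ± 0.43 (95% interval -1.55 to 0.45, adjusted p = 0.41).

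Hlf, a PAR bZIP factor used as a marker of blood stem cells, was near the floor in every library (chromosome 11, 90336536 to 90390895). In the Hdac2 line it had 6 and 11 counts in 4OHT libraries and 8 and 9 counts in EtOH libraries, and the totals of 17 and 17 counts gave a ratio of 1.07 (exact Poisson 95% interval 0.515 to 2.24, adjusted p = 0.92 in edgeR). The Hdac1 line had 2 and 2 counts in 4OHT libraries and 3 and 3 counts in EtOH libraries. No library of the Hdac1 line exceeded the floor, so its fitted value there is not read as a fold and no difference was detectable at this depth. These intervals cover counting error only.

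Spi1 encodes PU.1, the ETS factor that sets up macrophage and granulocyte genes (chromosome 2, 91082390 to 91115756, plus strand). It stood at 13.0 and 9.42 CPM in Hdac2 lox/lox 4OHT libraries, against 11.0 and 6.30 CPM in Hdac2 lox/lox EtOH libraries. Levels in the Hdac1 line were 6.67 and 8.20 CPM in 4OHT libraries, against 15.8 and 7.45 CPM in EtOH libraries. All neighbouring groups overlapped, and the highest group mean was 1.56 times the lowest. The log2 fold changes with 4OHT were 0.37 ± 0.42 in the Hdac2 line (95% interval -0.60 to 1.33, adjusted p = 0.50) and -0.64 ± 0.41 in the Hdac1 line (95% interval -1.59 to 0.32, adjusted p = 0.81). That value in the Hdac1 line rested on EtOH replicate 1, the highest library, and was 0.0013 without it.

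Cebpa, a bZIP factor of granulocyte and monocyte progenitors, had few counts (chromosome 7, 35119293 to 35121926, plus strand). In the Hdac2 line it had 19 and 12 counts in 4OHT libraries, or 1.47 and 1.07 CPM, against 13 and 6 counts in EtOH libraries, or 0.843 and 0.573 CPM. Cebpa in the Hdac1 line had 3 and 3 counts in 4OHT libraries, at the floor, against 17 and 8 counts in EtOH libraries, or 0.928 and 0.400 CPM. Groups were apart in both lines, with 4OHT above EtOH in the Hdac2 line and below it in the Hdac1 line. The log2 fold change was 0.82 ± 0.55 in the Hdac2 line (adjusted p = 0.26) and -1.68 ± 0.66 in the Hdac1 line (unadjusted p = 0.034, adjusted p = 0.73), so neither passed. The totals of 31 against 19 counts gave a ratio of 1.75 in the Hdac2 line (exact Poisson 95% interval 0.958 to 3.28), and 6 against 25 counts gave 0.304 in the Hdac1 line (0.102 to 0.758).

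Ikzf1 encodes IKAROS, a zinc finger factor that recruits the NuRD complex, of which HDAC1 and HDAC2 are subunits (chromosome 11, 11685003 to 11772926, plus strand). It stood at 21.9 and 30.2 CPM in Hdac2 lox/lox 4OHT libraries, against 36.6 and 60.7 CPM in Hdac2 lox/lox EtOH libraries. The groups did not overlap, and Ikzf1 fell with 4OHT, with a log2 fold change of -0.90 ± 0.28 (95% interval -1.54 to -0.26, adjusted p = 0.039), or 1.86 times lower. Ikzf1 in the Hdac1 line stood at 63.4 and 50.4 CPM in 4OHT libraries, against 80.7 and 84.8 CPM in EtOH libraries. The 4OHT libraries were lower there too, at a log2 fold change of -0.54 ± 0.27 (adjusted p = 0.77). Like Myb, Ikzf1 was lowest in Hdac2 lox/lox 4OHT and highest in Hdac1 lox/lox EtOH, and its group means ranged over 3.18 times. Its middle groups, Hdac1 lox/lox 4OHT and Hdac2 lox/lox EtOH, overlapped.

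Hhex, a homeodomain factor of early endothelium and liver bud, was the steadiest of the 9 (chromosome 19, 37434810 to 37440731, plus strand). It stood at 80.1 and 99.5 CPM in Hdac2 lox/lox 4OHT libraries, against 97.6 and 82.2 CPM in Hdac2 lox/lox EtOH libraries. Levels in the Hdac1 line were 100.03 and 76.9 CPM in 4OHT libraries, against 86.1 and 99.3 CPM in EtOH libraries. Every pair of groups overlapped, and the highest group mean was 1.05 times the lowest. The 95% interval of the log2 fold change was -0.47 to 0.46 in the Hdac2 line (adjusted p = 0.99) and -0.53 to 0.39 in the Hdac1 line (adjusted p = 0.97).

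**Figure D2:**
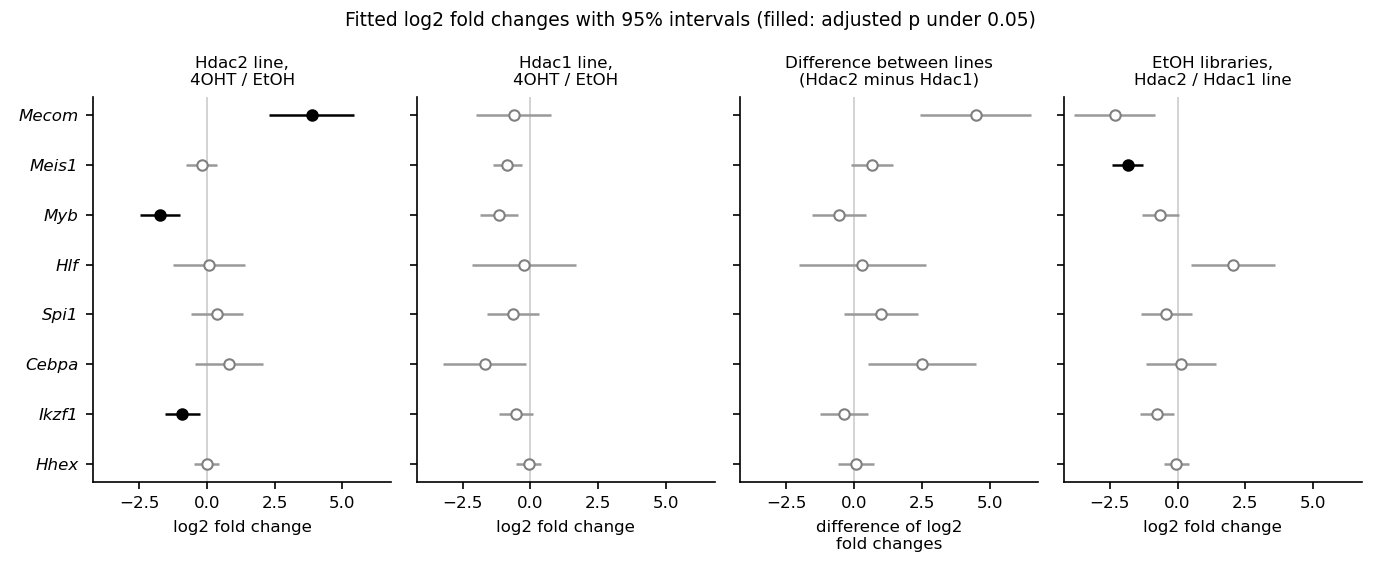
Fitted log2 fold changes of the 8 tested genes with 95% intervals in 4 comparisons (x axis, log2 scale), filled where the adjusted p was under 0.05. In the Hdac2 line Mecom (3.86), Myb (-1.71) and Ikzf1 (-0.90) are filled, in the Hdac1 line and for the difference between the lines none is, and among the EtOH libraries Meis1 (-1.85) is. The Hlf value in the Hdac1 line comes from counts at or under the floor.

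In the Hdac2 line 4OHT libraries lay wholly above EtOH libraries for 2 of the 8 tested genes, Mecom and Cebpa, and wholly below for 2, Myb and Ikzf1. Over all 14179 genes, 78.3% had groups that did not overlap. The median log2 fold change of the 8 genes was 0.04, against -0.02 over all genes. With 1 library of this line left out, Mecom was called without 4OHT replicate 1 (log2 fold change 4.16, adjusted p = 0.044) but not without 4OHT replicate 2 (3.49, 0.070), EtOH replicate 1 (3.33, 0.066) or EtOH replicate 2 (4.61, 0.075), and Myb and Ikzf1 were called in none of these 4 fits. Without EtOH replicate 2, which stood apart in Ddx3y, Myb had a log2 fold change of -1.42 (adjusted p = 0.077) and Ikzf1 of -0.49 (adjusted p = 0.23), and without 4OHT replicate 1 Ikzf1 had -0.68.

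The same comparison in the Hdac1 line gave no call for any of the 9 genes. No gene passed over the whole table (0% of 14179) in edgeR's quasi-likelihood test, with 947 genes at an unadjusted p under 0.05, while DESeq2 called 32 genes and edgeR's likelihood ratio test 35, none of them among the 9. At an unadjusted p under 0.05 stood 3 of the 8 tested genes, Meis1, Myb and Cebpa. Without Hlf, which was at or under the floor in all 4 libraries, the fold changes of the other 7 were negative, with a median log2 value of -0.64 against -0.02 over all genes. 4OHT libraries lay wholly below EtOH libraries for 4 genes, Meis1, Myb, Cebpa and Ikzf1, and overlapped for the other 4, where 31.2% of all genes had groups that did not overlap. These values come from libraries that matched better across agents than within them, as given above. A fit of this line alone with its replicate numbers crossed, chosen after seeing the data, called 4 of the 6 genes it tested, all lower with 4OHT, where 6.82% of all genes were called. Its pairs were picked because these same libraries were alike, which lowers the spread and favours calls in advance. The calls of that fit are therefore a description and add no support. Without EtOH replicate 2, which had the highest Mecom level of this line, the sign for Mecom turned, with a log2 fold change of 0.18.

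Whether 4OHT acted differently in the lines was tested directly, as the fold change in the Hdac2 line minus that in the Hdac1 line. None of the 8 genes passed, and 4 of all genes did (0.0282%). Mecom came nearest, with a difference of 4.48 ± 0.88 on the log2 scale (95% interval 2.43 to 6.53, unadjusted p = 0.0011, adjusted p = 0.072 in edgeR). That difference passed in DESeq2 (adjusted p = 4.35e-06), in edgeR's likelihood ratio test (adjusted p = 8.17e-05) and without EtOH replicate 1 of the Hdac1 line (5.01, adjusted p = 0.011). Cebpa had a difference of 2.50 ± 0.86 (95% interval 0.52 to 4.48, unadjusted p = 0.020, adjusted p = 0.12 in edgeR). For the other 6 genes the differences ran from -0.55 for Myb to 1.00 for Spi1, with adjusted p-values of 0.23 or more.

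The EtOH libraries of the lines were compared to read how the lines differed without 4OHT, and they share their libraries with the comparisons above. Meis1 was lower in Hdac2 lox/lox EtOH than in Hdac1 lox/lox EtOH, at 17.8 ± 3.89 CPM against 63.8 ± 11.8 CPM (SD, n = 2 each). The log2 fold change was -1.85 ± 0.24 (95% interval -2.41 to -1.28, adjusted p = 0.017 in edgeR), and Meis1 was the 1 gene called of the 8 tested, where 9.33% of all genes were called. It lost the call without the first or the second Hdac2 line EtOH library, at -1.64 (adjusted p = 0.19) and -2.09 (adjusted p = 0.077). Mecom averaged 6.54 ± 3.85 CPM in the Hdac2 line and 32.0 ± 19.4 CPM in the Hdac1 line (SD, n = 2 each), with a log2 fold change of -2.32 ± 0.64 and an adjusted p of 0.058 in edgeR. Without EtOH replicate 1 of the Hdac1 line, it passed, at -2.85 (adjusted p = 0.017). It also passed at adjusted p-values of 0.046 and 0.044 when either 4OHT library of the Hdac1 line was left out of the shared fit.

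No other gene passed between the EtOH libraries. Hlf had 8 and 9 counts in the Hdac2 line against 3 and 3, at the floor, in the Hdac1 line, a ratio of 4.19 in CPM (exact Poisson 95% interval 1.58 to 13.0), but did not pass (adjusted p = 0.081 in edgeR). It passed the filter on low counts only through libraries of the Hdac2 line, so this ratio is given as a description. Ikzf1 was lower in the Hdac2 line at a log2 fold change of -0.77 ± 0.27 (adjusted p = 0.098), and Myb at -0.64 ± 0.30 (adjusted p = 0.18). Groups did not overlap for 5 of the 8 genes, with Hlf above and Mecom, Meis1, Myb and Ikzf1 below, where 60.1% of all genes had groups that did not overlap. Summed erythroid markers of these libraries were 1616 and 1592 CPM in the Hdac2 line, against 908 and 271 CPM in the Hdac1 line, and their part in these differences was not tested. Ddx3y, given above, was 15.7 times lower in the Hdac2 line here (adjusted p = 0.034), so the lines also differed in a Y-linked gene.

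**Figure D3:**
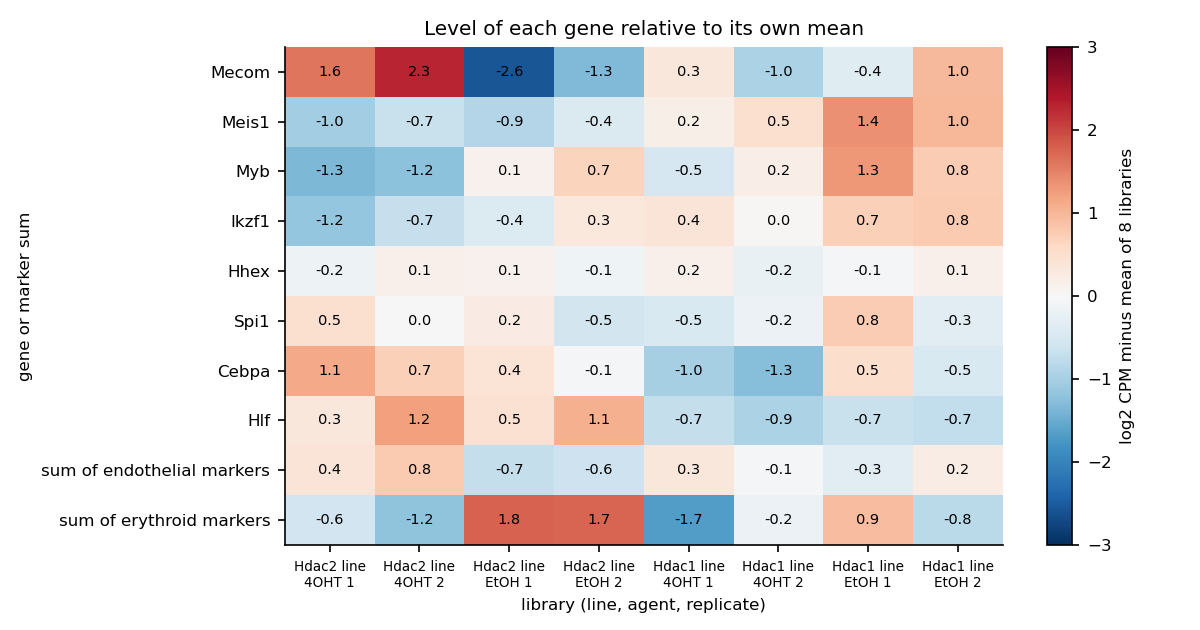
Log2 CPM of the 8 tested genes and of the summed endothelial and erythroid markers, each minus its mean over the 8 libraries (colour and printed values, log2 units), by library. Mecom runs from -2.6 in Hdac2 line EtOH 1 to 2.3 in Hdac2 line 4OHT 2, and Hhex stays between -0.2 and 0.2.

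Levels compared per kilobase of exon put Hhex first. Averaged over the groups, Hhex had 17.8 CPM per kilobase, Ikzf1 9.28, Spi1 3.61, Myb 3.36, Meis1 3.15 and Mecom 3.07 CPM per kilobase. Cebpa (0.270), Hlf (0.0637) and Prdm16 (0.00533) were far lower. Within single groups the order moved, since Mecom had 7.50 ± 2.41 CPM per kilobase in Hdac2 lox/lox 4OHT, above Ikzf1 with 4.51 ± 1.02, and 0.527 ± 0.310 in Hdac2 lox/lox EtOH, below Myb with 3.79 ± 1.00 (SD, n = 2 each).

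**Figure D4:**
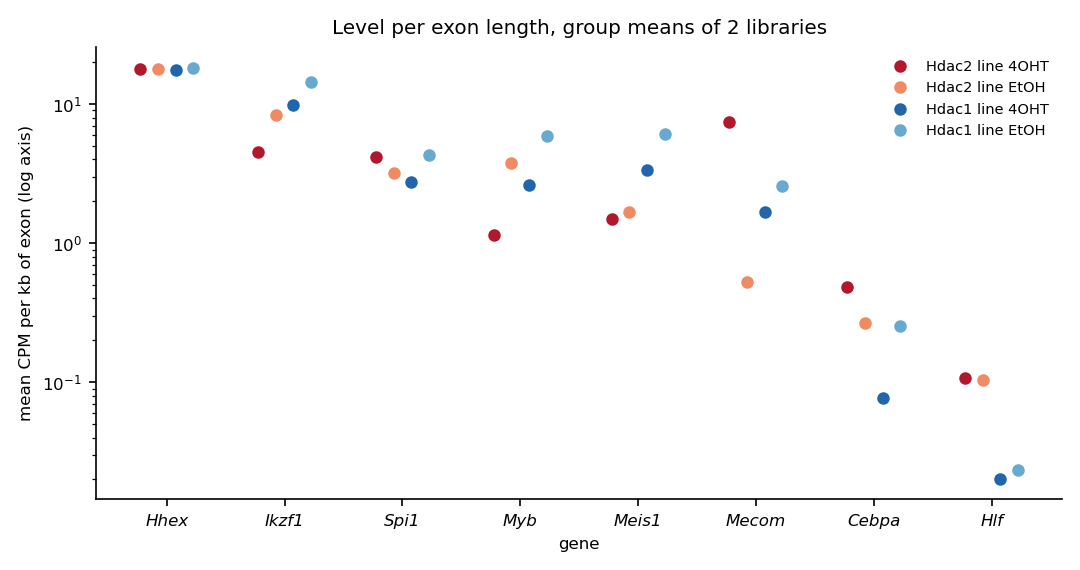
Mean level per exon length (CPM per kilobase, log axis) of the 8 tested genes in the 4 groups, each point the mean of 2 libraries. Mecom spans from 0.527 in Hdac2 line EtOH to 7.50 in Hdac2 line 4OHT, while the 4 Hhex points coincide near 17.8.

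Across the 8 libraries Meis1, Myb and Ikzf1 varied together. Pearson correlations of log2 CPM were 0.861 for Meis1 with Ikzf1, 0.849 for Myb with Ikzf1 and 0.727 for Meis1 with Myb. Spi1 and Cebpa correlated at 0.697. The lowest values were -0.781 for Meis1 with Hlf, at or under the floor in the Hdac1 line, and -0.583 for Mecom with Myb. Libraries fall into 4 groups and share line and agent, so these are descriptions of 8 points and carry no p.

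The gene most like each of the 8 in pattern was sought among 9911 or 9912 other genes with a mean of at least 5 CPM. Mecom was most like Vamp1, which encodes a vesicle fusion protein (r = 0.994 over 8 libraries), Meis1 like Eme1 (0.997), a subunit of a DNA repair nuclease, and Ikzf1 like Kif24 (0.988), a kinesin. Myb was most like Slc35f2 (0.986), Hlf like Rqcd1 (0.980), Cebpa like Sphk2 (0.937) and Hhex like Trip4 (0.908). Spi1 was most like Lyz2 (0.887), the macrophage lysozyme. Such values are common among the strongly varying genes: 679 genes exceeded 0.9 with Mecom, 321 with Myb, 199 with Ikzf1 and 159 with Meis1, but 1 with Hhex and none with Spi1.

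Relatives and partners of the 9 genes were read next, from a list of 27 PRDM, MEIS, PBX, MYB, PAR bZIP, ETS, C/EBP and IKAROS family genes. Of these, 23 were tested in the Hdac2 line, and 2 rose and 1 fell with 4OHT, with a median log2 fold change of 0.18 against -0.02 over all genes, of which 36.1% were called. Prdm2, a PRDM methyltransferase, averaged 125 ± 6.60 CPM with 4OHT and 47.6 ± 3.71 CPM with EtOH (log2 fold change 1.39 ± 0.25, adjusted p = 0.011). Meis2, the close relative of Meis1, averaged 19.4 ± 3.50 CPM with 4OHT and 6.13 ± 2.53 CPM with EtOH (1.67 ± 0.31, adjusted p = 0.012). Dbp, a clock-controlled relative of Hlf, fell to 6.82 ± 0.226 CPM with 4OHT, against 14.8 ± 1.56 CPM with EtOH (-1.12 ± 0.29, adjusted p = 0.025; SD, n = 2 each). With a library of the Hdac2 line left out, 1 of the 23 was called without 4OHT replicate 1 and 0 without any of the other three, and without either EtOH library of the Hdac1 line 6 were. None of the 23 was called in the Hdac1 line.

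Of 28 other stem and progenitor genes, 24 were tested in the Hdac2 line, and 3 rose and 5 fell with 4OHT, with a median log2 fold change of -0.24 against -0.02 over all genes. That share is near the 36.1% called over all genes. Ly6a, which encodes the surface marker SCA1, averaged 23.9 ± 6.91 CPM with 4OHT and 3.21 ± 2.79 CPM with EtOH (2.84 ± 0.71, adjusted p = 0.022). Msi2, an RNA-binding protein of stem cells, rose to 175 ± 15.3 CPM with 4OHT, against 84.6 ± 6.95 CPM with EtOH, and the ETS factor Erg to 172 ± 41.0 CPM with 4OHT, against 108 ± 8.09 CPM with EtOH. Those that fell were led by Tal1 (-1.18), Gfi1b (-2.70), Nfe2 (-3.02) and Lmo2 (-2.01), each with an adjusted p of 0.0089 or less. Tal1 and Lmo2 belong to the core complex that opens blood genes, and Gfi1b and Nfe2 act in the red cell and megakaryocyte lineages. They moved alongside the erythroid markers given above, of which 5 of 6 were called lower, and the part of those markers was not tested. With a library of the Hdac2 line left out, 1 of the 24 was called without 4OHT replicate 1 or EtOH replicate 1 and 0 without 4OHT replicate 2 or EtOH replicate 2. None of the 24 was called in the Hdac1 line.

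Among 25 myeloid genes known to lie downstream of Spi1 and Cebpa, 23 were tested in the Hdac2 line, and 7 rose and 2 fell with 4OHT, with a median log2 fold change of 0.48 against -0.02 over all genes. This share of called genes is also near the 36.1% over all genes. Itgam, the integrin chain CD11b, averaged 15.1 ± 0.508 CPM with 4OHT and 0.696 ± 0.849 CPM with EtOH (4.30 ± 0.76, adjusted p = 0.011). Its EtOH libraries stood at 1.30 and 0.0955 CPM, the second of them under the floor, so the size of that fold is uncertain. Csf1r, the receptor of the macrophage growth factor, averaged 9.11 ± 3.58 CPM with 4OHT and 1.146 ± 0.946 CPM with EtOH (2.92 ± 0.62). Csf1r is among the 7 counted as higher but needed these 4OHT libraries to pass the filter on low counts. Its difference is therefore a description and adds no support. Csf2rb, a shared cytokine receptor chain, rose to 63.2 ± 0.107 CPM with 4OHT, against 20.7 ± 10.6 CPM with EtOH (adjusted p = 0.024), but it has a close paralogue, Csf2rb2, and the treatment of reads that match both is not stated, so that level is uncertain. Cybb, an NADPH oxidase subunit, had 32 counts over both 4OHT libraries against 1 count over both EtOH libraries, a ratio of 34.3 in CPM (exact Poisson 95% interval 5.74 to 1398). It is among the 7 counted as higher but passed the filter on low counts only through these 4OHT libraries, so its difference is a description and adds no support. The same holds for Cd33, also among the 7, which reached the cutoff of that filter only in 4OHT libraries of the Hdac2 and Hdac1 lines.

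The myeloid genes that fell, Mpo and Csf3r, are known from granulocytes. Mpo, the peroxidase of granulocyte precursors, fell to 3.91 ± 0.374 CPM with 4OHT, against 29.2 ± 4.42 CPM with EtOH (-2.90 ± 0.65, adjusted p = 0.017), and Csf3r, the receptor of the granulocyte growth factor, to 2.10 ± 0.327 CPM with 4OHT, against 5.23 ± 0.433 CPM with EtOH (-1.31 ± 0.35, adjusted p = 0.026). Spi1 and Cebpa themselves did not pass in the same comparison, with log2 fold changes of 0.37 and 0.82. Of 5 tested macrophage markers, some also in the myeloid list, 4 were called higher. Csf1r and Cx3cr1 are among these and needed the 4OHT libraries to pass the filter on low counts, so their calls add no support. The sum over the 6 macrophage markers in the table was 49.0 and 50.1 CPM with 4OHT, against 22.04 and 42.7 CPM with EtOH. Mrc1 made up most of the EtOH sums, at 15.2 and 40.9 CPM, and overlapped between agents, at 11.6 and 19.2 CPM with 4OHT. C1qa, a defining gene of tissue macrophages, was at 0 in all 4 libraries of this line. Of the 23 myeloid genes, 1 was called without EtOH replicate 1 of the Hdac2 line and 0 without any other library of that line, and none was called in the Hdac1 line.

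**Figure D5:**
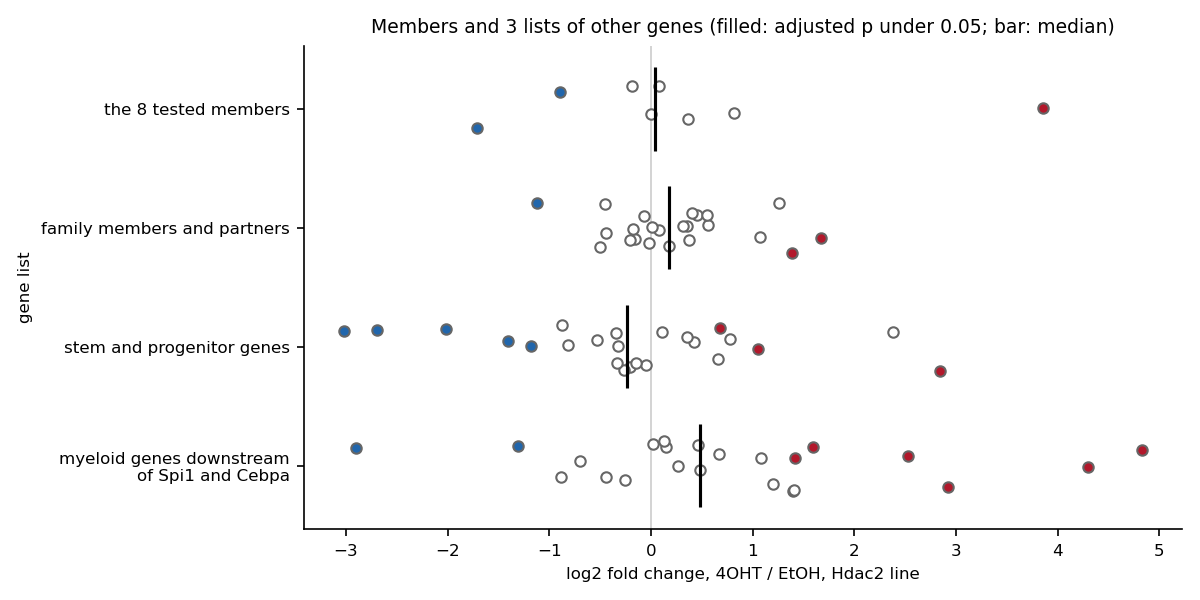
Log2 fold change of 4OHT against EtOH in the Hdac2 line (x axis) for the 8 tested genes and the tested genes of 3 lists, each point 1 gene, filled red where called higher and blue where called lower, with a bar at the list median. Medians are 0.04, 0.18, -0.24 and 0.48 from top to bottom.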

How the data were processed

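Raw counts of reads, deposited by the authors as whole numbers, covered 41128 genes in 8 libraries. The columns were matched to samples by the samples' own descriptions. Per the labels, total RNA went into a strand-specific library kit. Tools named per the submitters' processing notes include Bowtie2 2.2.1 and SAMtools 0.1.19, without their roles, and the genome build named there is mm10. The sources used here do not name the counting program, annotation release or strand setting. Genes overlapping the 9 took at most 23 counts each over all libraries.

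Low genes were removed with filterByExpr, which left 14179 genes with 99.93% of counts, and TMM scaling followed (edgeR 4.0.16, R 4.3.3). A robust quasi-likelihood fit with group means took in all 8 libraries, which pools the spread of the 4 groups. p-values were adjusted by Benjamini-Hochberg over all genes tested, at 0.05. Standard errors were taken from the F statistic. Ratios of small counts carry exact Poisson 95% intervals, which cover counting error only. Correlations used log2 CPM with a prior count of 2. Alternatives were RLE, upper quartile and no scaling, no filter, DESeq2 1.42.0, edgeR's likelihood ratio test, limma-voom (limma 3.58.1), fits of the compared libraries alone, a replicate block and leaving out each library. The scripts were tested on simulated data.

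Exon lengths came from GENCODE M21, which held 40254 of the identifiers, and sequences from RefSeq promoter windows on GRCm38.p6. The 9 genes and the 3 lists of other genes were chosen with earlier results of these data known. From each list, up to 4 called genes with the smallest adjusted p per direction in the Hdac2 line are named.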

Additional observations from a re-analysis of the deposited data

Results flagged for a closer look

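Cebpa stood out because its 4OHT libraries lay wholly above the EtOH libraries in the Hdac2 line and wholly below them in the Hdac1 line. Over all genes, 78.3% had groups that did not overlap in the Hdac2 line and 31.2% in the Hdac1 line. The share of genes apart in opposite directions was not counted. The difference between the lines in its log2 fold change was 2.50 ± 0.86, and the test of that difference did not pass (unadjusted p = 0.020, adjusted p = 0.12 in edgeR's quasi-likelihood test). Its counts were 19 and 12 with 4OHT and 13 and 6 with EtOH in the Hdac2 line. In the Hdac1 line they were 3 and 3 with 4OHT, at the floor, and 17 and 8 with EtOH. Leaving out 1 library at a time moved the difference between 1.79, without Hdac1 lox/lox EtOH replicate 1, and 2.98, without Hdac1 lox/lox EtOH replicate 2, and it passed in none of these fits.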

How the results depend on the processing

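The calls of Mecom and Myb with 4OHT in the Hdac2 line held under all 9 alternatives that kept every library, with log2 fold changes from 3.72 to 4.00 and from -1.85 to -1.68. Ikzf1 held under 8 of 9 and missed with the replicate block (-0.89, adjusted p = 0.054), where 2 of the 8 genes were called, and Meis1 between the EtOH libraries held under all 9. Among the 8 genes the block changed no other call, and with it 6 stem and progenitor genes and 8 myeloid genes were called, in place of 8 and 9. Deviations of same-numbered libraries correlated at 0.264 in the Hdac2 line and -0.688 in the Hdac1 line. With 2 libraries a group, these values cannot decide whether replicate numbers pair the samples. With the numbers of the Hdac1 line crossed, chosen after seeing the data, 4 of the 6 genes tested and 945 of 13859 genes were called. Those calls add no support, since the pairs were picked from the likeness of the same libraries.

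Between the EtOH libraries 2 of the 8 genes were called with no scaling, with no filter and in DESeq2, and 4 in the likelihood ratio test. For the difference between the lines, 1 was called in DESeq2 and in the likelihood ratio test. Of the family members and partners, 5 were called in DESeq2 and the likelihood ratio test and 7 with libraries compared alone, where 13 stem and progenitor genes were called. Upper quartile scaling and no scaling shifted the median log2 fold change of all genes in the Hdac2 line to -0.15 and -0.14. There Hlf turned sign, to -0.051 and -0.039. Hhex turned sign in the Hdac2 line with RLE scaling and in DESeq2 (0.026 each), and with upper quartile scaling for the difference (-0.053) and between the EtOH libraries (0.040). Over all genes, calls in the Hdac2 line rose to 7272 with libraries compared alone and were 3624 with the block. Calls between the EtOH libraries ran from 141 with libraries compared alone and 184 with the block to 2064 with no filter, 2801 in DESeq2 and 2937 in the likelihood ratio test. Calls for the difference were 0 with the block, 1 in limma-voom, 11 with no scaling, 1187 with no filter, 1781 in DESeq2 and 1927 in the likelihood ratio test.

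Leaving out 1 library at a time, 0 to 3 of the 8 genes were called in the Hdac2 line, 0 to 1 for the difference and 0 to 2 between the EtOH libraries. Calls in the lists ran from 0 to 6 family members and partners, 0 to 10 stem and progenitor genes and 0 to 10 myeloid genes. Over all genes, 0 to 6422 were called in the Hdac2 line, with 0 of them without EtOH replicate 2 of that line, where 5112 genes had an unadjusted p under 0.05. Sign changes occurred among genes that were not called. In the Hdac2 line, Hhex ran from -0.16 to 0.15, Hlf from -0.52 to 0.53 and Meis1 from -0.40 to 0.053. In the Hdac1 line, Hhex ran from -0.27 to 0.11, Hlf (at or under the floor in that line, so not read as a fold) from -0.43 to 0.0039, Spi1 from -1.09 to 0.0013 and Mecom from -1.41 to 0.18. For the difference, Hhex ran from -0.11 to 0.26, Hlf from -0.30 to 0.76 and Ikzf1 from -0.68 to 0.053. Between the EtOH libraries, Hhex ran from -0.17 to 0.070, Cebpa from -0.36 to 0.83 and Spi1 from -0.88 to 0.23. The cause of these changes was not tested. A group left with 1 library took its spread from the other groups. Depth limits Prdm16, Hlf and Cebpa, whose counts were at or near the floor of 3.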
